A study of Mus musculus with 6 samples.

Results

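The guanylate-binding proteins (GBPs), the immunity-related GTPases (IRGs), the Schlafen proteins and the IFI200 proteins are products of gene families that interferons induce. They were examined here in bone marrow stromal cells of mice with leukemia. Members were taken by symbol: Gbp, Slfn, Irgm or Iigp with a digit, Ifi20 or Ifi21 with a further digit, and Igtp, Tgtp1, Tgtp2, Ifi47, Mndal, Mnda and Aim2. Of 41 such symbols on the array, 33 had a probe set of their own and were analysed as genes, out of 22180 genes in all. The other 8 symbols (Gbp2, Ifi47, Ifi203, Ifi211, Slfn5os, Slfn9, Tgtp1 and Tgtp2) were reached only by probe sets that carry several symbols, of which there were 8. These probe sets are described apart from the genes.

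Gene expression was measured on 6 Affymetrix arrays, 3 labelled chronic myeloid leukemia (CML) and 3 labelled acute myeloid leukemia (AML). All 6 samples were bone marrow cells of mice with the genotype Col2.3 GFP, where green fluorescent protein is driven by part of the promoter of Col1a1 and so marks bone-forming cells, and the labels call the sorted cells osteoblastic. The titles and the series design name 3 samples of each leukemia, while the source names give CML for all 6, so every direction below rests on the titles. Strain, age, sex and the way in which leukemia was induced were not given in the sources used here, and no sample without leukemia was analysed. The labels do not say whether each sample came from a different mouse, so p-values reflect no more than how these samples varied, and that variation may be technical. Values are log2 of the deposited intensities, changes are AML minus CML, and the test was limma with Benjamini-Hochberg adjustment over all 22180 genes.

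Interferons act through receptors that activate transcription factors in the cytoplasm, which then enter the nucleus. The DNA motifs through which the response runs are the interferon-stimulated response element (ISRE), bound by complexes that hold IRF9, and the gamma-activated site (GAS). GBPs and IRGs are GTPases that gather on vacuoles and bacteria inside cells and help to break them open. Schlafen proteins act on cell growth, transfer RNA and ribosomes, mainly in blood cells. IFI200 proteins bind nucleic acids, and AIM2, the best known of them, senses DNA in the cytosol and starts an inflammasome.

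The sorted cells held bone and blood transcripts in unequal amounts on the 6 arrays. Here and below, values are listed in the order of replicates 1, 2 and 3. Col1a1, the main collagen of bone, was at 10.22, 8.71 and 11.95 on the CML arrays against 8.63, 9.87 and 7.27 on the AML arrays. Ptprc, the leukocyte antigen CD45, was 2.36 ± 0.80 higher in AML by value (SE; limma adjusted p = 0.176). All 17 pan-haematopoietic genes were higher in AML by value, and Ptpn6 and Vav1 passed. Their summed intensity ran from 2694 to 7533 on the CML arrays and from 10032 to 16361 on the AML arrays, and none was listed at 0. In bulk samples such as these, fewer cells of a type and less RNA per cell cannot be told apart.

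Most of the 33 genes were lower in AML by value, and none passed the adjusted threshold. Lower values were found for 26 and higher values for 7, and the median change was -0.39, against -0.11 over all genes. At an adjusted p under 0.05, limma called 0 of the 33, against 1.91% of all genes in either direction and 0.0812% as lower. At an unadjusted p under 0.05, 5 of the 33 were lower and 2 higher, where 8.99% of all genes were lower and 12.6% higher. The lower genes at that level were Slfn14, Gbp7, Gbp8, Gbp11 and Irgm1, and the higher ones were Slfn2 and Aim2. Limma with trend and robust options also called 0 of the 33, against 311 of all 22180 genes. Without these options, the smallest limma adjusted p among the 33 was 0.0815, for Slfn14.

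The share of lower genes has to be read against the signal level, because dim genes as a whole were lower in AML. Of all genes, 61.7% were lower in AML by value. Among genes under the median signal of all genes it was 83.2%, and among those above it 40.2%. Of the 19 members under that median, 15 were lower, a share close to the background. Of the 14 members above it, 11 were lower, or 78.6%, with a median change of -0.54 against 0.17 for all genes above the median. After median centring of the arrays, which moved the median of all genes from -0.11 to 0.04, 10 of these 14 members were lower, against 31.2% of the genes above the median. After quantile normalization and cyclic loess 11 of the 14 were lower, against 45.7% and 47.2%. The median of the 14 was -0.33 without CML 3 and -0.26 without AML 3.

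**Figure D1:**
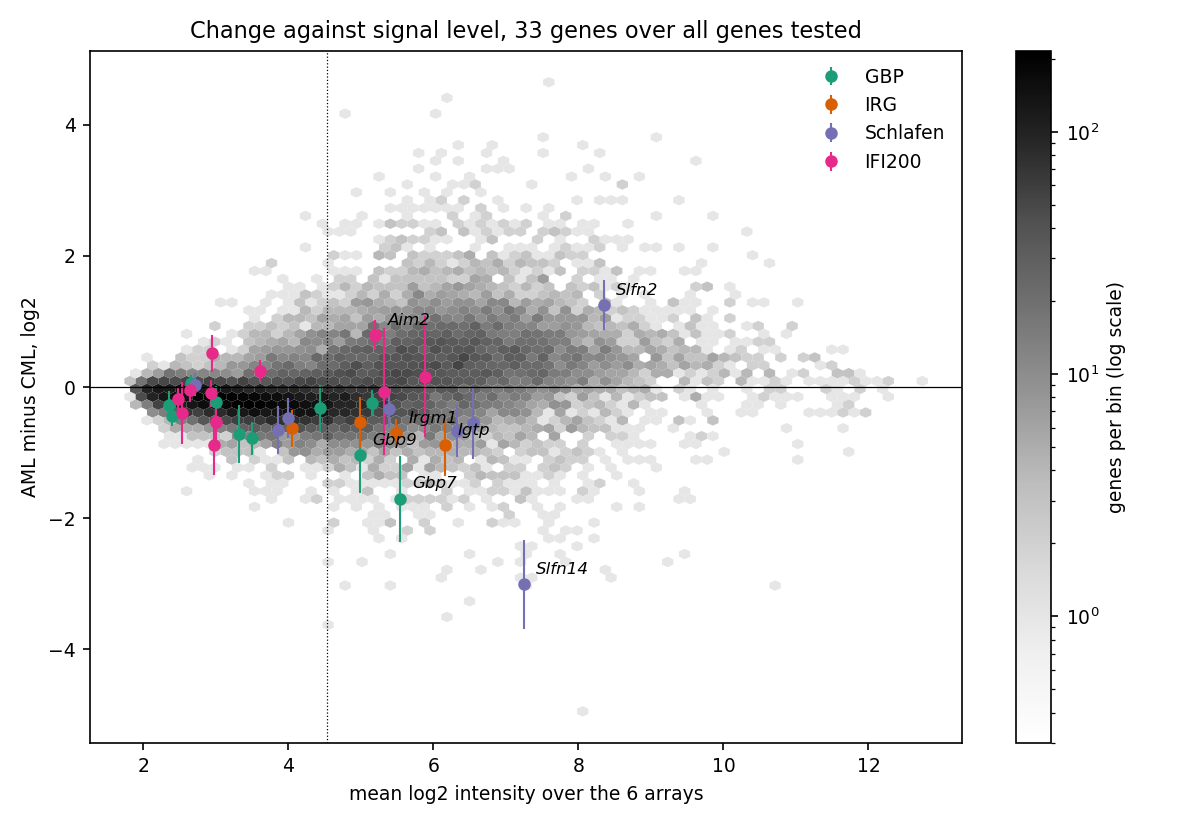
The change of each of the 33 genes (AML minus CML, log2; points, with the standard error of limma as bars) is plotted against its mean log2 intensity over the 6 arrays, with all 22180 genes as grey bins and their median level as a dotted line. Dim genes lie mostly just below 0, while brighter genes lean upwards, and Slfn14 at -3.01 and Gbp7 at -1.70 lie below the bulk of genes at their level.

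All 4 IRGs with a probe set of their own were lower in AML by value (median -0.66), as were 9 of 10 GBPs (-0.38) and 6 of 8 Schlafen genes (-0.51), and these counts were the same under all 3 other scalings. The 11 IFI200 genes divided into 7 lower and 4 higher, around a median of -0.07. That median was positive under the other scalings, from 0.02 to 0.08, with 4 or 5 of the 11 lower. The groups did not overlap for 7 members that were lower in AML, against 17.9% of all genes, and for 1 that was higher, against 13.3%. The lower ones were Gbp7, Gbp8, Gbp9, Gbp11, Irgm1, Slfn14 and Ifi208, and the higher one was Aim2. This split moved with the scaling. After median centring 4 were lower and 4 higher without overlap, against 6.89% and 19.0% of all genes. After quantile normalization it was 5 and 3, against 10.2% and 12.2%, and after cyclic loess 5 and 3, against 9.17% and 12.5%. At least a 2-fold difference was seen for 4 of the 33 genes (Slfn14, Slfn2, Gbp7 and Gbp9), against 7.64% of all genes.

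**Figure D2:**
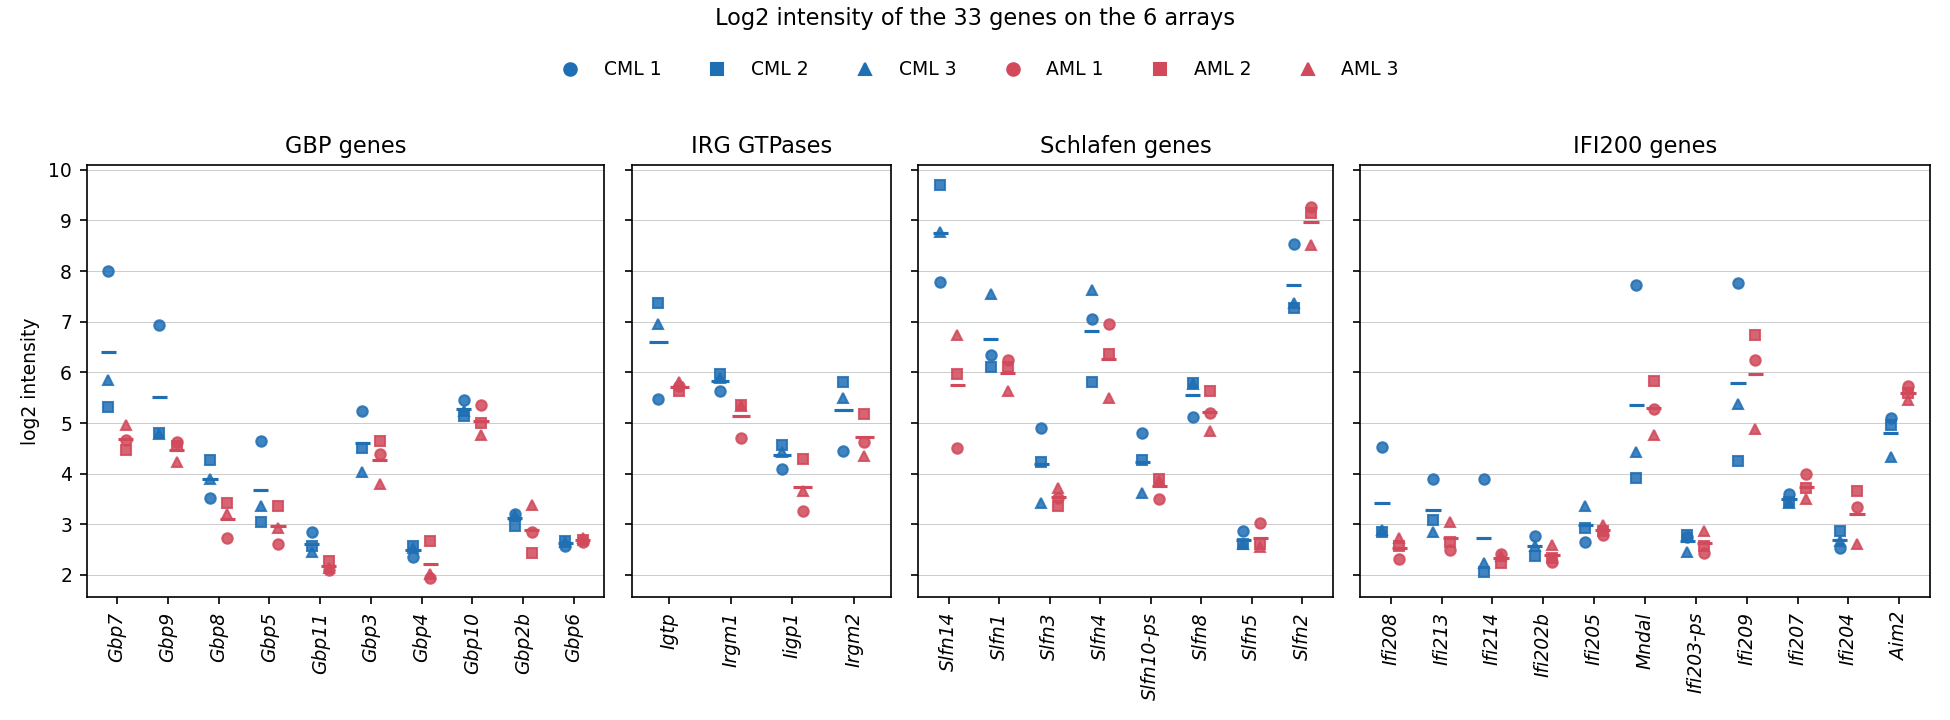
Log2 intensity of each of the 33 genes on the 3 CML arrays (blue) and the 3 AML arrays (red), with a bar at each group's mean and the genes of each family in order of their change. Slfn14 shows the widest gap between the groups, Slfn2 and Aim2 are higher in AML by value, and CML 1 stands far above the other CML arrays for Gbp7, Gbp9, Mndal and Ifi209.

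Among GBPs, large GTPases that assemble into coats on the membranes of pathogens, the gap was widest at Gbp7. Gbp7 (probe set 17403224) was at 8.01, 5.32 and 5.85 on the CML arrays against 4.66, 4.46 and 4.95 on the AML arrays. Every CML array lay above every AML array, and CML 1 lay far above the rest. The change was -1.70 ± 0.66 (SE), a 3.26-fold lower level in AML (unadjusted p = 0.0381; limma adjusted p = 0.210). Without CML 1 it was -0.89 (limma adjusted p = 0.122).

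Gbp9 had the same layout. It was at 6.94, 4.81 and 4.79 on the CML arrays against 4.62, 4.55 and 4.24 on the AML arrays. The other 2 CML arrays lay just above the AML arrays, and the change of -1.04 ± 0.57 (SE; limma adjusted p = 0.316) was -0.33 without CML 1. Gbp5, which takes part in inflammasome activation, was at 4.65 on CML 1 and between 2.61 and 3.37 on the other 5 arrays.

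Gbp8 and Gbp11 were lower on every AML array than on any CML array, at dim signals. Gbp8 was at 3.53, 4.27 and 3.89 in CML and at 2.73, 3.42 and 3.20 in AML, a change of -0.78 ± 0.26 (SE; unadjusted p = 0.0203; limma adjusted p = 0.166). Gbp11, a transcribed pseudogene in RefSeq, was at 2.84, 2.57 and 2.45 against 2.10, 2.28 and 2.14, a change of -0.44 ± 0.16 (SE; unadjusted p = 0.0261; limma adjusted p = 0.184). Both lay under the median of all genes, where most genes were lower in AML. Gbp10 was at -0.24, Gbp3 at -0.32, Gbp4 at -0.27 and Gbp2b at -0.23, with overlapping groups. Single arrays set the size of these values, as Gbp3 was at -0.61 without CML 3 and near 0 without CML 1, Gbp2b at -0.01 without AML 2, Gbp10 at -0.10 without AML 3 and Gbp4 at -0.14 without AML 1. Gbp6, at 0.06, lay between 2.57 and 2.73 on all 6 arrays. By position, the 4 GBP genes on chromosome 3 had a median change of -0.52 and the 6 on chromosome 5 one of -0.36.

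The probe set shared by Gbp2 and Gbp2b gave the clearest difference among the GBPs. It was at 6.16, 7.03 and 6.15 on the CML arrays against 4.73, 4.65 and 4.79 on the AML arrays. The AML arrays were nearly alike (SD 0.0668) and lay more than 1 log2 unit under the lowest CML array. Its change was -1.73 ± 0.26 (SE), a 3.31-fold lower level in AML. In a limma fit over all 39721 probe sets it did not pass (limma adjusted p = 0.0581), and its adjusted p ran from 0.0521 to 0.221 over 10 other settings. In that fit 0 of the 8 shared probe sets passed, against 0.685% of all probe sets. The Gbp2b probe set alone was dim, between 2.44 and 3.37, with a change of -0.23 ± 0.25 (SE; limma adjusted p = 0.567). Gbp2 is a GBP of the vacuole attack in mice, and Gbp2b is the mouse gene once called Gbp1.

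The promoters of the families carried the ISRE core more often than promoters at large. Promoters of Gbp7 and Gbp2 are shown because the Gbp7 probe set and the one shared by Gbp2 and Gbp2b had the largest differences of the family. Promoter windows run from 250 bases before to 50 bases after a RefSeq start site (build GRCm38.p6), and 31 of the 41 symbols had one. The core searched for the ISRE was GAAANNGAAA on either strand, and that for the GAS was TTCNNNGAA, which reads alike on both strands. In the windows of the 31 genes no ISRE match overlapped a GAS match. Matches are in capitals in the sequences that follow. The Gbp7 window (chr3:142530086-142530385, plus strand) has GAS matches from positions -106 and -87 and an ISRE match from position -53 relative to the start. The Gbp2 stretch (chr3:142620594-142620623, plus strand) has an ISRE match from position -59.

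Gbp7: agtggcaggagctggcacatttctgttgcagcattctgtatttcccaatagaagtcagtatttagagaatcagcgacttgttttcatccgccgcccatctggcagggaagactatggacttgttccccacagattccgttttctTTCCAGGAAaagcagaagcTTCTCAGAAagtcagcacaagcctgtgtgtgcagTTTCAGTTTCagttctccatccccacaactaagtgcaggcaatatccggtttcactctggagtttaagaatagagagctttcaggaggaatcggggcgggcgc
Gbp2: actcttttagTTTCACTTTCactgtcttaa

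An ISRE core was found in 21 of the 31 genes (67.7%), against 3.99% of the 27025 genes with a window. A GAS core was found in 7 (22.6%), against 9.55%. By family, the ISRE core was present in 5 of 5 GBP, 5 of 6 IRG, 8 of 11 IFI200 and 3 of 9 Schlafen genes with a window. The 5 GBP genes all lie on chromosome 3. None of the 6 GBP genes on chromosome 5, among them Gbp8, Gbp9 and Gbp11, had a window. In 17 of the 21 genes a match began within the 100 bases before the start. Of the 23 members with both a window and a probe set of their own, 15 had an ISRE core. Of these 15, 13 were lower in AML by value, with a median of -0.39, and of 8 without one 5 were lower, with a median of -0.37. Many of these genes are neighbouring copies within a family, so their windows are not independent of each other. A match describes letters in a window and is not a measured binding site.

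**Figure D3:**
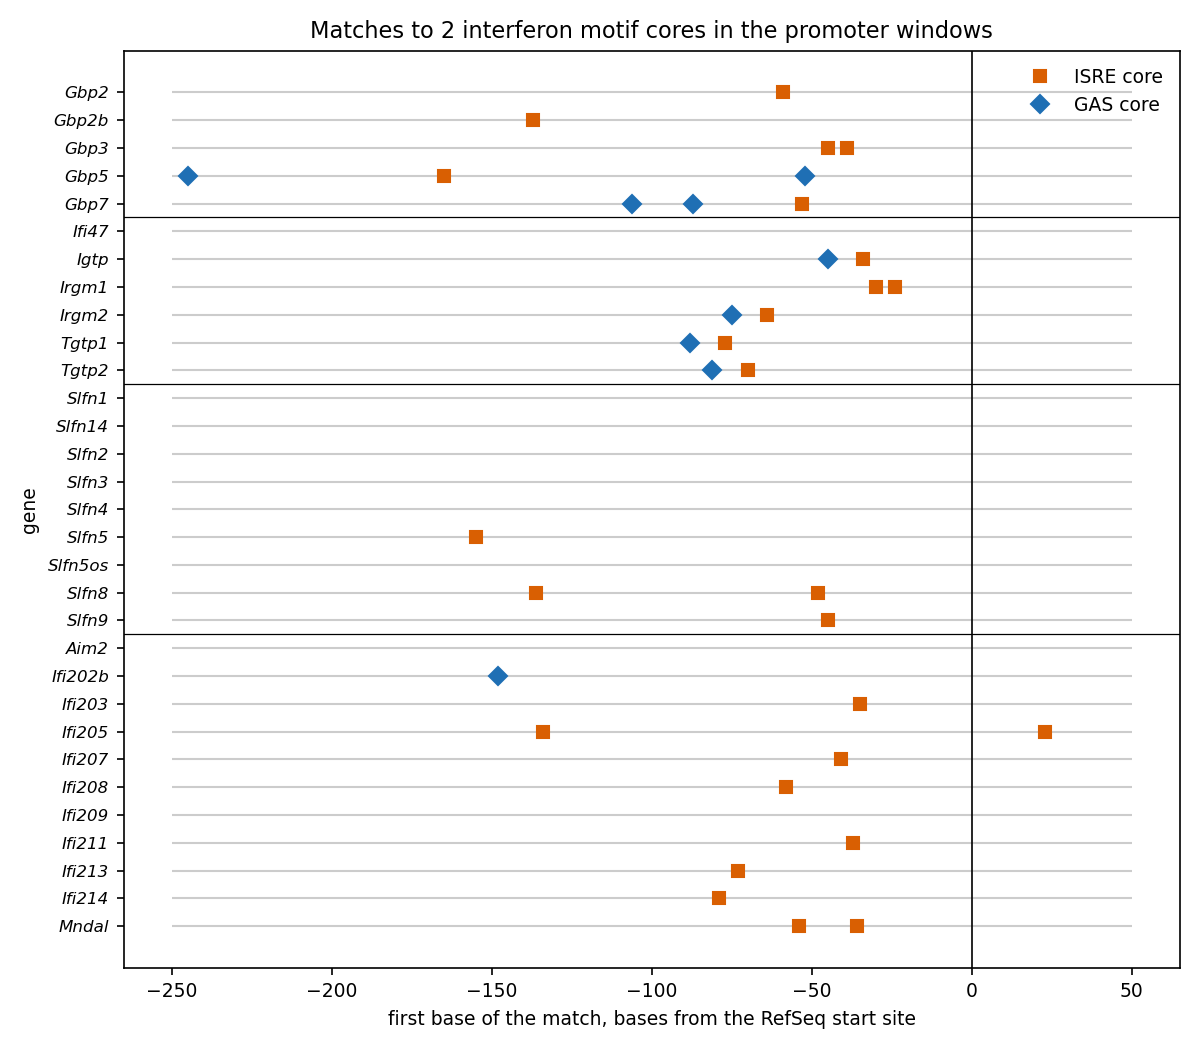
Position of each match to the ISRE core (orange squares) and the GAS core (blue diamonds) in the promoter windows of 31 genes, in bases from the RefSeq start site, with the families divided by lines. Most ISRE matches lie shortly before the start, and 4 IRG genes carry a GAS core just before an ISRE core. Slfn1, Slfn2, Slfn3, Slfn4, Slfn5os, Slfn14, Aim2, Ifi209 and Ifi47 have neither core. Genes with several RefSeq starts have their windows drawn on 1 line, so a match can appear at more than 1 distance.

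The 4 IRG genes with a probe set of their own were lower in AML by value and did not pass, while 2 of the 3 probe sets that IRG genes share were higher by value. Irgm1 and Irgm2, with Igtp (also called Irgm3), are the regulatory IRGs that keep the effector IRGs inactive on the cell's own membranes. Irgm1 (probe set 17262202) was at 5.63, 5.96 and 5.90 on the CML arrays against 4.70, 5.36 and 5.33 on the AML arrays. Its groups did not overlap, and the change was -0.70 ± 0.22 (SE; unadjusted p = 0.0169; limma adjusted p = 0.156). With 1 array left out the change ran from -0.82 to -0.48.

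Igtp (probe set 17249980) was at 5.48, 7.38 and 6.96 on the CML arrays against 5.74, 5.62 and 5.80 on the AML arrays. CML 2 and CML 3 lay above every AML array, and CML 1 lay below them all. The change was -0.89 ± 0.46 (SE; limma adjusted p = 0.299). It was -1.45 and passed without CML 1 (limma adjusted p = 0.0400), and it was -0.50 without CML 2. Irgm2 was at 4.46, 5.80 and 5.49 in CML and 4.62, 5.18 and 4.35 in AML, a change of -0.53 ± 0.39 (SE; limma adjusted p = 0.415). CML 2 and CML 3 again lay above every AML array, while CML 1 lay within the AML range. Its change was -0.26 without CML 2 and -0.93 without CML 1.

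Iigp1, an effector IRG that coats parasite vacuoles, was at 4.10, 4.57 and 4.42 in CML and at 3.26, 4.29 and 3.65 in AML. Only AML 2 reached into the CML range, and the change was -0.63 ± 0.29 (SE; limma adjusted p = 0.255). The effectors Tgtp1 and Tgtp2 were measured together by a pair of shared probe sets that did not point the same way, at -0.31 ± 0.29 and 0.25 ± 0.48 (SE; limma adjusted p over all probe sets = 0.544 and 0.776). On both of them CML 1 was the highest array, at 5.08 and 5.89. Ifi47, the effector also known as Irg47, shared its probe set with the olfactory receptor gene Olfr56 and was at 0.15 ± 0.28 (SE; limma adjusted p = 0.759).

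The promoters of Igtp, Irgm2, Tgtp1 and Tgtp2 shared a composite of both motifs, with the GAS core starting 11 bases before the ISRE core and 2 bases between them. This spacing was picked after the matches had been seen. It occurred in 5 of the 32851 windows, those of these 4 genes and of Gm12185, while 149 windows held both motifs somewhere. The stretches follow, with both matches in capitals: Igtp at chr11:58199501-58199541 and Irgm2 at chr11:58214892-58214932 on the plus strand, Tgtp1 at chr11:48992304-48992344 and Tgtp2 at chr11:49064263-49064303 on the minus strand. Irgm1, at chr11:48871425-48871460 on the minus strand, instead has overlapping ISRE matches from positions -30 and -24.

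Igtp: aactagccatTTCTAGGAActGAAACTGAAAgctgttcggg
Irgm2: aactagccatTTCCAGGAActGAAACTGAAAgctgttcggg
Tgtp1: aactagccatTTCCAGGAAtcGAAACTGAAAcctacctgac
Tgtp2: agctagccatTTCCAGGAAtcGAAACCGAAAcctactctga
Irgm1: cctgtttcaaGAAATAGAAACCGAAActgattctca

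Over these 41 bases Igtp and Irgm2 were identical at 40 positions, Tgtp1 and Tgtp2 at 34, and the pairs across the 2 groups at 31 or 32. Igtp and Irgm2, with nearly the same stretch, were both highest on CML 2 and lowest in CML on CML 1. Irgm1, without the composite, and Iigp1, without a window, had that order too. The probe sets shared by Tgtp1 and Tgtp2, genes whose stretches hold the same composite, were highest on CML 1. Any link between these stretches and the order of the arrays was not tested.

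Among the Schlafen genes, Slfn14 had the largest difference of all 33 genes. Slfn14 encodes a ribosome-bound endoribonuclease described in reticulocytes and platelets. It was at 7.78, 9.70 and 8.78 on the CML arrays against 4.51, 5.98 and 6.74 on the AML arrays (probe set 17266885). The lowest CML array lay above the highest AML array, with a wide spread inside both groups (SD 0.96 and 1.13). The change was -3.01 ± 0.68 (SE), an 8.04-fold lower level in AML, and it did not pass (unadjusted p = 0.00339; limma adjusted p = 0.0815). With 1 array left out it ran from -3.51 to -2.39, with adjusted p from 0.0637 to 0.219. It passed when only the upper 50% of genes by mean level were tested (limma adjusted p = 0.0462).

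Erythroid genes lay in the same order as Slfn14 within each group. All 7 measured erythroid genes were lower in AML by value, with a median of -1.58, and none passed; the lowest adjusted p was 0.273. Summed over the list, intensities came to 2279, 7546 and 5022 for the CML replicates and to 351, 1177 and 4083 for the AML replicates, and none was listed at 0. Both the sum and Slfn14 were highest within their group on CML 2 and AML 3 and lowest on CML 1 and AML 1. Slc4a1, the anion exchanger of the red cell membrane, was at 9.83, 11.16 and 10.75 in CML and 4.89, 8.68 and 10.26 in AML. AML 3 was within the CML range for the sum of the erythroid genes, and Slfn14 on that array, at 6.74, was below all CML arrays. The part of red cell precursors in the Slfn14 difference was not tested.

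**Figure D4:**
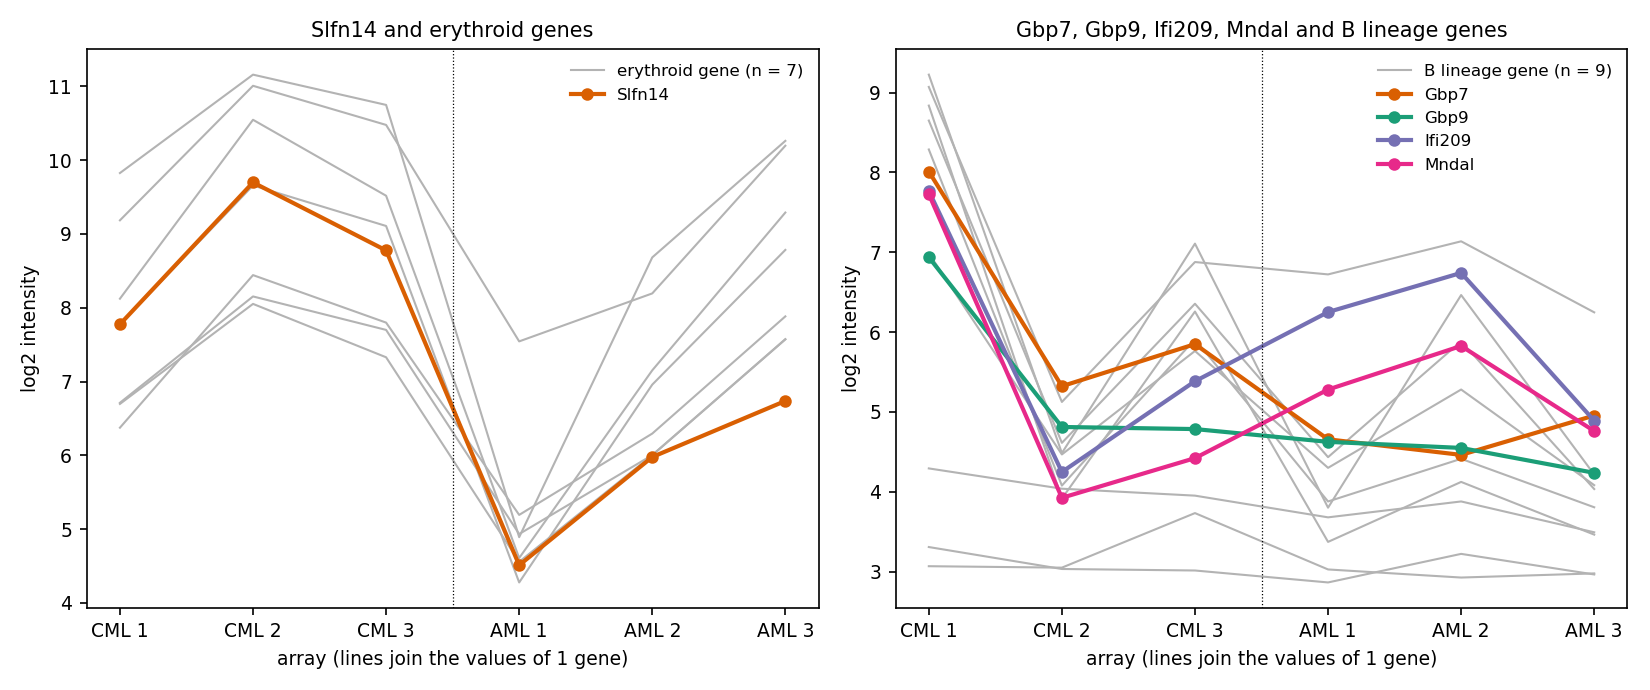
Log2 intensity on each array of Slfn14 beside the 7 erythroid genes (left, grey) and of Gbp7, Gbp9, Ifi209 and Mndal beside the 9 B lineage genes (right, grey), each line joining the values of 1 gene. Slfn14 is highest on CML 2 and lowest on AML 1, as the erythroid genes are, and the other 4 genes are highest on CML 1, where most B lineage genes are highest too.

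The Slfn14 window (chr11:83286677-83286976, minus strand) is shown whole, for contrast with the GBP and IRG sequences printed above. It holds neither core, which says only that these letters are not in this window.

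Slfn14: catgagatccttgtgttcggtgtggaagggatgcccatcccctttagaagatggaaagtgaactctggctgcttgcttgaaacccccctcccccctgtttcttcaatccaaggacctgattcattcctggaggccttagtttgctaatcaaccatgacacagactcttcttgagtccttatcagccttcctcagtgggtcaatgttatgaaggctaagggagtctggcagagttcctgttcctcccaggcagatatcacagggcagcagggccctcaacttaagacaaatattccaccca

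Slfn2, which keeps lymphocytes and monocytes in a quiescent state, was the member with the largest difference towards AML. It was at 8.53, 7.28 and 7.36 on the CML arrays against 9.26, 9.15 and 8.51 on the AML arrays (probe set 17254166). The groups met where CML 1 just exceeded AML 3. The change was 1.25 ± 0.38 (SE), a 2.38-fold higher level in AML (unadjusted p = 0.0146; limma adjusted p = 0.147), and without CML 1 it was 1.65 and passed (limma adjusted p = 0.0479). The pan-haematopoietic genes, all higher in AML by value, also had their highest CML sum on CML 1 and their lowest AML sum on AML 3. Their part in the Slfn2 difference was not tested.

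The remaining Schlafen genes gave smaller and overlapping values. Slfn4, induced in macrophages during activation, was at 7.05, 5.80 and 7.63 in CML and 6.96, 6.37 and 5.49 in AML, a change of -0.55 ± 0.55 (SE; limma adjusted p = 0.536). Without AML 3 it was -0.16, and without CML 3 it was -0.15. Slfn1, first described in growth arrest of thymocytes, was high on CML 3 at 7.55 and between 5.63 and 6.34 elsewhere (-0.68 ± 0.39, SE; limma adjusted p = 0.335). It was -0.23 without CML 3. Slfn8 was at -0.33, Slfn3 at -0.65 and the transcribed Slfn10-ps at -0.47, and without AML 3, CML 1 and CML 1 these were -0.15, -0.30 and -0.19. Slfn5 was dim, between 2.56 and 3.03, at a change of 0.04.

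The probe set of Slfn9 and Slfn8 was at 6.02, 3.48 and 3.18 on the CML arrays against 5.76, 5.35 and 6.55 on the AML arrays. As for Slfn2, CML 2 and CML 3 were low while CML 1 lay within the AML range, and the change was 1.66 ± 0.78 (SE; limma adjusted p over all probe sets = 0.308). The Slfn8 probe set on its own was at 5.11, 5.79 and 5.77 in CML and 5.19, 5.63 and 4.85 in AML, so the pair of probe sets did not point the same way. The probe set of Slfn5 and its antisense gene Slfn5os was at 3.81, 4.03 and 4.43 against 3.74, 3.40 and 3.43, without overlap (-0.57 ± 0.21, SE; limma adjusted p = 0.237). Of the 8 shared probe sets, this one and that of Gbp2 and Gbp2b lay lower on every AML array, against 17.4% of all probe sets. The same 2 were lower at an unadjusted p under 0.05, against 8.95%.

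The IFI200 genes, which lie side by side on chromosome 1, split between dim members and a few that varied widely. Aim2, the sensor of cytosolic DNA, was at 5.11, 4.96 and 4.34 on the CML arrays against 5.72, 5.60 and 5.46 on the AML arrays (probe set 17219643). Every AML array lay above every CML array. The change was 0.79 ± 0.23 (SE), a 1.73-fold higher level in AML (unadjusted p = 0.0110; limma adjusted p = 0.133), and it ran from 0.56 to 0.95 with 1 array left out.

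Ifi209 and Mndal, which encode nuclear proteins of the family, had similar means in the groups and a wide spread in CML. Ifi209 (probe set 17219662) was at 7.77, 4.25 and 5.38 in CML and 6.25, 6.74 and 4.89 in AML, a change of 0.16 ± 0.92 (SE; limma adjusted p = 0.923). Mndal was at 7.73, 3.92 and 4.42 in CML and 5.28, 5.83 and 4.76 in AML, a change of -0.07 ± 0.96 (SE; limma adjusted p = 0.970). Both were highest on CML 1 and lowest on CML 2. Without CML 1 their changes were 1.15 and 1.12, and without CML 2 they were -0.62 and -0.79, so that single arrays set the direction.

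Ifi208 was at 4.53 on CML 1, 2.84 and 2.89 on the other CML arrays, and 2.32, 2.58 and 2.72 in AML (-0.88 ± 0.46, SE; limma adjusted p = 0.297). Without CML 1 the change was -0.33. Ifi213 and Ifi214 were likewise highest on CML 1, at 3.90 each. Ifi204, the mouse relative of the human DNA sensor IFI16, was dim and at 0.51 ± 0.28, and the probe set it shares with Ifi211 was at -0.14 ± 0.47 (SE; limma adjusted p = 0.313, and 0.877 over all probe sets). Ifi202b, which lacks the pyrin domain of the others, lay between 2.25 and 2.78 on all arrays. Ifi205 and Ifi203-ps were at -0.09 and -0.04 and turned positive under all 3 other scalings. Ifi207 was at 0.24, and the probe set with the symbols Ifi203, LOC100862473 and Ifi203-ps at -0.11.

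CML 1 held the highest value of the 6 arrays for 14 of the 33 genes, against 18.3% of all genes. It was at least 1 log2 unit above the mean of CML 2 and CML 3 for 9 of the 33 (27.3%), against 3.55% of all genes. These were Mndal (3.56 above), Ifi209 (2.95), Gbp7 (2.43), Gbp9 (2.14), Ifi214 (1.75), Ifi208 (1.67), Gbp5 (1.46), Slfn2 (1.21) and Slfn3 (1.08). Igtp, Slfn14 and Irgm2 went the opposite way, at -1.69, -1.46 and -1.19, where 3.94% of all genes lay at least 1 unit below. Some members were thus high on CML 1 and others on CML 2 and CML 3, within a single labelled group.

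Of the 9 measured B lineage genes, 8 were also highest on CML 1, and Vpreb1 was highest on CML 3. All 9 were lower in AML by value and none passed. Summed over the list, intensities came to 2474, 169 and 565 for the CML replicates and to 180 to 397 for the AML replicates, and none was listed at 0. Cd79a, the signalling chain of the B cell receptor, was at 8.84 on CML 1, 3.91 on CML 2 and 6.26 on CML 3. The part of B lineage cells in the values of Gbp7, Gbp9, Ifi209 and Mndal on CML 1 was not tested.

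**Figure D5:**
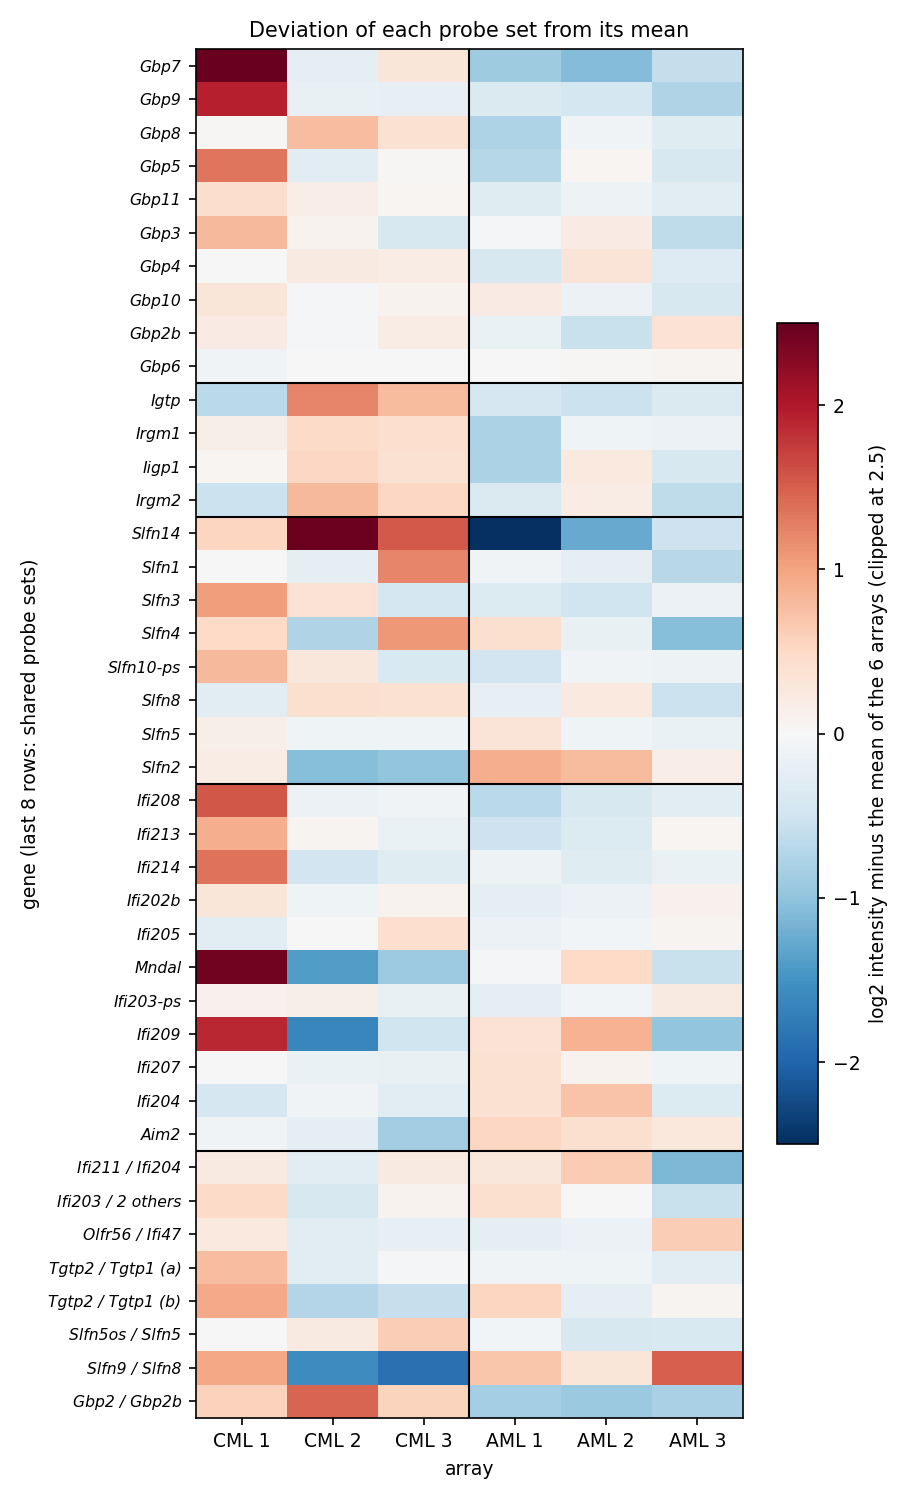
Log2 intensity of the 33 genes and the 8 shared probe sets minus each one's mean over the 6 arrays, in rows by family and columns by array, with red above the mean and blue below it. CML 1 is red for Gbp7, Gbp9, Mndal and Ifi209 and blue for Igtp and Irgm2, and the probe set of Gbp2 and Gbp2b is red on all CML arrays and blue on all AML arrays.

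The rest of the interferon pathway was described from lists that were not trimmed by their values, with 1.91% of all genes called as the background. By value, 83.2% of all genes under the median level were lower in AML, against 40.2% of those above it. Of 16 measured interferon genes 15 were lower in AML by value, 10 of them were dim, and Ifna1 fell by 0.90 on the log2 scale (limma adjusted p = 0.0441). Among 14 receptor and signalling genes 11 were higher by value. Usp18, which restrains the type I receptor, fell by 1.47 (limma adjusted p = 0.0298). The receptor chain Ifngr1 was 2.01 ± 0.38 higher by value and Ifnar1 0.40 ± 0.17 (SE; limma adjusted p = 0.0545 and 0.241). Stat2, a signal transducer of the type I receptor, was at 0.31.

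Among 11 measured transcription factors of the response, Bcl6 and Spi1 rose by 2.03 and 1.96 (limma adjusted p = 0.0393 and 0.0453). Spi1 encodes PU.1, a factor of the myeloid lineage, and Bcl6 encodes a repressor of lymphoid and myeloid cells. Irf9, the DNA-binding part of the complex on the ISRE, was at 6.27, 6.63 and 6.40 in CML and 5.40, 5.53 and 5.74 in AML. Its groups did not overlap, and it was -0.88 ± 0.17 by value (SE; limma adjusted p = 0.0558). Irf1, which drives many GBP and IRG genes, was at 0.12 ± 0.20 (SE; limma adjusted p = 0.711).

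Among 24 measured type I effectors, 19 had lower values and the median was -0.40, and Rsad2, an antiviral enzyme, fell by 2.76 (limma adjusted p = 0.0491). Isg15, a ubiquitin-like modifier, was at 6.77, 8.95 and 8.55 on CML 1, 2 and 3, low on CML 1 as Igtp and Irgm2 were. It was at 4.26, 4.76 and 5.49 in AML (-3.25 ± 0.60, SE; limma adjusted p = 0.0534). Of 19 measured interferon gamma targets and antigen presentation genes 12 were higher by value, with a median of 0.17. Only 6 of the 19 lay under the median level, and all genes above that level also had a median of 0.17. The immunoproteasome subunit Psmb10 rose by 1.28 (limma adjusted p = 0.0359).

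Of 15 measured inflammasome and DNA sensing genes 14 were higher by value, with a median of 0.55. Pycard, the adaptor ASC that AIM2 recruits, rose by 1.54 ± 0.19 and Naip5, a sensor of bacterial flagellin, by 2.05 ± 0.25 (SE; limma adjusted p = 0.0248 for both). Gsdmd, the pore former of pyroptosis, and Casp1 were 1.80 and 2.30 higher by value (limma adjusted p = 0.0567 and 0.0789). The autophagy proteins that help to load GTPases onto vacuoles had a median of 0.03 over 16 genes. Atg5 rose by 1.10 and Atg3 was 1.75 higher by value (limma adjusted p = 0.0412 and 0.0623). With 1 array left out, Naip5 passed in 3 of 6 fits, Pycard and Usp18 in 2, Ifna1, Bcl6, Spi1 and Rsad2 in 1, and Atg5 and Psmb10 in 0. Under the 3 other scalings Pycard passed in 2 and each of the other 8 in 1, and none of the 9 passed after cyclic loess.

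Markers of other cells were unevenly spread over the groups, beside the blood genes above. Of 14 monocyte and macrophage genes, 10 were higher and 4 lower in AML by value. At an unadjusted limma p under 0.05, 6 were higher and 3 lower, against 12.6% and 8.99% of all genes. Ccr2, Cd68 and Mpeg1 rose by 2.23, 2.80 and 2.67 (limma adjusted p = 0.0368, 0.0477 and 0.0479). The sum of the 14 was 1557 to 3918 on CML arrays, below the 5156 to 9404 of AML arrays. Of 14 granulocyte genes, 11 were higher and 3 lower by value, and Elane and Mpo rose by 3.85 and 2.65 (limma adjusted p = 0.0151 and 0.0221). With 1 array left out, Elane, Mpo and Ptpn6 passed in 3 of 6 fits, Mpeg1 in 2, and Ccr2, Cd68 and Vav1 in 1. Under the other scalings Elane passed in 3 of 3, Mpo in 2, and the other 5 genes in 1. None of 11 osteoblast, 14 T and NK cell, 10 dendritic or 11 endothelial genes passed, and all 11 osteoblast genes were lower in AML by value. So were 13 of the T and NK cell, 6 of the dendritic and 9 of the endothelial genes, against 61.7% of all genes. Under the median level lay 10 of the T and NK cell, 4 of the dendritic, 7 of the endothelial and 0 of the osteoblast genes. Of all genes under that level 83.2% were lower by value, against 40.2% of those above it. The smallest p-values of these lists belonged to Phex and Col1a2 (-1.51 and -1.10), Nkg7 and Prf1 (1.68 and -0.62), Flt3 and Siglech (0.91 and -0.52), and Emcn and Pecam1 (-0.45 and 1.20). Nkg7 was the only higher gene of its list, and Pecam1 was 1 of 2 in its own. The part of these cells in the values of the 33 genes was not tested.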

How the data were processed

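The deposited values are intensities, 1 table over 6 arrays and 39721 probe sets. Limma and lumi are listed, without versions, per the submitters' processing notes. How the authors scaled the deposited intensities was not given in the sources used here. Log2 of the deposited intensity (floor 1, reached by 0 values) was fitted with limma 3.58.1 in R 4.3.3 (lmFit and eBayes, no covariates), with Benjamini-Hochberg adjustment and a threshold of 0.05. Platform annotation, updated through RefSeq, gave 1 symbol for 23521 probe sets, several for 1814 and none for 14386. Each of 22180 genes was represented by its brightest probe set, while probe sets with several symbols were fitted among all 39721.

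Array precision rests on 3 arrays a group. Of 241 genes on the pathway and marker lists 220 were measured. The members and lists were chosen with earlier results of these data known. Values on every array are given for members at an unadjusted p under 0.05 and for the brightest member of each family, and for others where their role or an array is described. From each list up to 4 genes past the threshold are named, or else the 2 with the lowest p, and Irf1, Irf9, Ifnar1, Ifngr1, Col1a1 and Ptprc in any case. Stat2, Isg15, Gsdmd, Casp1 and Atg3 fall outside this rule and were named after their values were seen. Alternatives were 3 scalings, averaging a gene's probe sets, testing only brighter genes, array weights, a robust eBayes with a mean-variance trend, the replicate number as a block, and omitting 1 array at a time. The labels do not say whether replicate numbers pair the groups, and correlations between same-numbered samples from 3 arrays a group cannot decide it. The fit was checked on data with known changes.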

Additional observations from a re-analysis of the deposited data

How the results depend on the processing

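The 26 lower genes, the median of -0.39 and the 0 calls among the 33 genes were recomputed under 14 other settings. Median centring moved the median to -0.24. With only the upper 50% of genes tested, 14 members remained in the test. Of the 14, 1 passed, 11 were lower, the median was -0.54 and 5 had groups that did not overlap. Of all 11090 genes in that test 562 passed and 40.2% were lower, with a median of 0.17. Of the 5 members without overlap 4 were lower, against 9.68% of those 11090 genes, and 1 was higher, against 24.1%. With 1 array left out, 0 to 2 members passed, 24 to 27 were lower, the median ran from -0.50 to -0.23, and 11 to 15 had groups that did not overlap. Of these, 9 to 11 were lower, against 21.9% to 28.5% of all genes, and 1 to 4 higher, against 15.6% to 19.6%. The 2 that passed, without CML 1, were Igtp and Slfn2, in a fit that called 438 of all 22180 genes. The fits without CML 2 and without AML 3 called 357 and 279 of all genes. Ifi209 ran from -0.62 (without CML 2) to 1.15 (without CML 1), and was also negative without CML 3 (-0.05) and without AML 2 (-0.23). The replicate block left 0 of the 33 genes and 0 of all genes called (3711 of all genes at an unadjusted p under 0.05), with 26 lower and a median of -0.39. That count and median could not move under the block, because each replicate number occurs in both groups. Nor could they under the trend and robust options, which alter only the variances. Averaging probe sets could not move them either, as 0 members had more than 1 probe set of their own. Same-numbered samples had correlations of 0.24, -0.30 and -0.25 in their deviations, and other pairs ran from -0.28 to 0.47. Deviations from a mean of 3 arrays are bound to each other, so these values cannot decide whether the numbers pair the samples. Over all genes, limma called 423, against 93 after quantile normalization, 896 after median centring, 64 after cyclic loess and 639 with array weights. It called 0 without CML 3, AML 1 or AML 2 (3533, 3048 and 3750 at an unadjusted p under 0.05), so the calls in the pathway and marker lists depend on single arrays. Settings for the shared probe sets, for the lists and for the split by signal level were chosen after seeing the data. None of the 8 shared probe sets passed under the settings run for them. The cause was not tested for any of these changes. Dim signal limits 19 of the 33 genes, which lay under the median level.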
